A study of Mus musculus with 12 samples.

Results

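Oxidative phosphorylation is carried out in the inner mitochondrial membrane by complexes I to IV, which move electrons from NADH and succinate to oxygen and, except for complex II, pump protons, and by complex V, the ATP synthase, which uses the proton gradient to make ATP. Most subunits are encoded in the nucleus and imported, while a small set of core subunits is encoded and translated inside the mitochondrion, so complexes I, III, IV and V are built from the products of both genomes. Lymphocytes draw on this pathway for persistence and memory and, beside glycolysis, during activation. The genes described here are the protein-coding rows whose symbols begin with Nduf (without the assembly factors Ndufaf), Sdh a to d, Uqcr, Uqc, Cox4 to Cox8 or Atp5, together with the protein genes of mitochondrial DNA. They numbered 102 of the 54232 genes of the table, 89 nuclear and 13 mitochondrial, and were chosen by name, with earlier results of these data known. The nuclear members comprised 36 genes of complex I, 4 of complex II, 8 of complex III with 3 of its assembly factors, 20 of complex IV and 18 of complex V. The mitochondrial members comprised 7 genes of complex I, 1 of complex III, 3 of complex IV and 2 of complex V.

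RNA was measured in NK cells (CD45+ CD3ε- NK1.1+) and CD8 T cells (CD45+ CD3ε+ CD8a+) that had infiltrated subcutaneous tumours of MC38, a mouse colon adenocarcinoma line, 8 to 10 days after injection. The tumour-bearing mice were wild type C57BL/6N (WT), lacked the Janus kinase TYK2 (KO, Tyk2-/-), or carried Tyk2 K923E, a point mutation that leaves TYK2 protein without kinase activity (KE). Mice were 6 to 12 weeks old, both mutations were germline, so that the tumour host lacked TYK2 activity in all its cells, and the injected tumour cells were the same in every group. The design gave 6 groups of 2 libraries, each from 300 sorted cells, and allows NK cells to be compared with CD8 T cells and each mutant with WT. Nothing in the labels states that the 2 libraries of a group came from separate mice, so the tests measure the spread between these libraries, which may be technical.

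Total counts ranged from 10378761 to 14732882 per library, and the TMM factors that scale library size from 0.909 to 1.07. Levels of single genes are given as normalised CPM, which are counts per 1e6 of the TMM-scaled library size, on which 3 counts, the floor for a gene with no count, correspond to 0.219 to 0.275. The markers that separate the cell types followed the labels: of 6 markers Ncr1 and Klrb1c were called higher in NK cells, and Cd8a, Cd8b1 and Cd3e lower. The sixth, Ptprc, encodes CD45, for which both cell types were sorted. It was also called higher in NK cells and lay between 1686 and 3331 normalised CPM in all 12 libraries. Tyk2 itself lay between 46.981 and 118.917 normalised CPM in all 12 libraries, where the KO libraries of NK cells gave 55.7 and 104 and those of CD8 T cells 62.2 and 74.2, so its total count did not check the genotype labels. Marker genes of macrophages and monocytes (8 genes, all tested) summed to 7805 and 7003 normalised CPM in the WT NK libraries and 5052 in the first KO NK library, against 218 to 425 in the other 3 NK libraries and 56.5 to 357 in CD8 T cells. In that KO library Lyz2 stood at 3342, C1qb at 941, C1qa at 270, Fcgr3 at 250 and Cd68 at 231. Csf1r, Adgre1 and Itgam were at 0.155, 8.52 and 9.13 there. In the WT NK libraries these 3 genes were at 291 and 300, 284 and 248, and 57.5 and 53.9. Marker sums of B cells, MC38 epithelium, fibroblasts and erythroid cells reached at most 32.3, where Cd79a, Krt8, Krt19, Col1a2, Pdgfra, Hba-a1, Hba-a2 and Hbb-bt had 0 counts in every library and Cd79b reached 32.3, Epcam 17.2, Col1a1 14.4, Col3a1 9.78, Krt18 7.31 and Hbb-bs 2.02 in their highest library. In bulk samples fewer cells with a transcript and less of it per cell cannot be told apart.

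Most of the machinery was detected at a level that could be tested. With a minimum mean normalised count of 10, 81 of the 89 nuclear members and 7 of the 13 mitochondrial members were tested, among 13279 genes in all. All 36 nuclear genes of complex I, all 4 of complex II and all 11 of complex III and its assembly passed, as did 14 of 20 genes of complex IV and 16 of 18 of complex V. The members just above the minimum were Cox7a1, Cox6b2 and Ndufb4, and those just below it Cox6a2, Cox4i2 and Atp5l. The remaining untested members, Cox8b, Cox8c, Cox7b2, Ndufa4l2 and a second entry of Atp5o, had 0 counts in every library.

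Complex IV and complex V genes stood at the top of the nuclear members when normalised CPM was divided by the length of annotated exon. Cox4i1, the common isoform of a subunit that contacts the catalytic core of cytochrome c oxidase, had the highest level at 1111 per kilobase. Cox8a reached 773, Atp5b, the catalytic beta subunit of ATP synthase, 764, Cox6b1 689, and Uqcrh, the hinge protein of complex III, 673. In complex I the order was led by Ndufa1 at 341, Ndufb7 at 322 and Ndufa2 at 318, and closed by Ndufb4 at 12.9, Ndufab1 at 6.42 and Ndufb2 at 5.59. The exon lengths were 4387 bases for Ndufab1 and 4375 for Ndufb2, against 971 for Ndufb4. Before division by length Ndufab1 and Ndufb2 had means of 28.1 and 24.5 normalised CPM, above Ndufb4 at 12.5. Sdhb, the iron-sulfur subunit of succinate dehydrogenase, was at 285, Sdhd at 199, the flavoprotein gene Sdha at 115 and Sdhc at 37.7. Within complex III the low end was held by Uqcrc2 at 156 and Uqcrq at 84.2, and within complex V by Atp5s at 11.6 and Atp5l at 0.575. Only uniquely aligned reads were counted. Windows of 50 bases, the read length, that also occur in other annotated transcripts numbered 648 for Atp5l, 637 for Ndufab1 and 341 for Ndufb4. Ndufb2 had 315 and Atp5s 0, and the part of such copies in the low levels was not tested.

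Among genes that encode alternative forms of one subunit, the widely expressed form carried nearly all the signal. Cox4i1 stood at 1111 per kilobase and Cox4i2, known from lung, at 0.154. Cox6a1 was at 606 and its heart and muscle form Cox6a2 at 0.133. Cox6b1 was at 689 and the testis form Cox6b2 at 1.61. Cox7a2 and Cox7a2l were at 381 and 207, whereas the muscle form Cox7a1 was at 2.04. Cox7b stood at 205 and Cox7b2 at 0, and Cox8a at 773 with Cox8b and Cox8c at 0. Ndufa4, a subunit now placed in complex IV, was at 317 and its paralogue Ndufa4l2 at 0. The 3 genes for the identical c subunit of the ATP synthase ring were unequal, with Atp5g3 at 283, Atp5g2 at 33.9 and Atp5g1 at 18.9. Windows of 50 bases with a copy in other annotated transcripts numbered 0 for Atp5g3, 622 for Atp5g2 and 542 for Atp5g1. The exon lengths were 724, 731 and 4912 bases in the same order. The part of such copies in this inequality was not tested. Before division by length Atp5g1 stood above Atp5g2, at 56.2 to 149 against 18.7 to 38.1 normalised CPM over the 12 libraries.

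**Figure D1:**
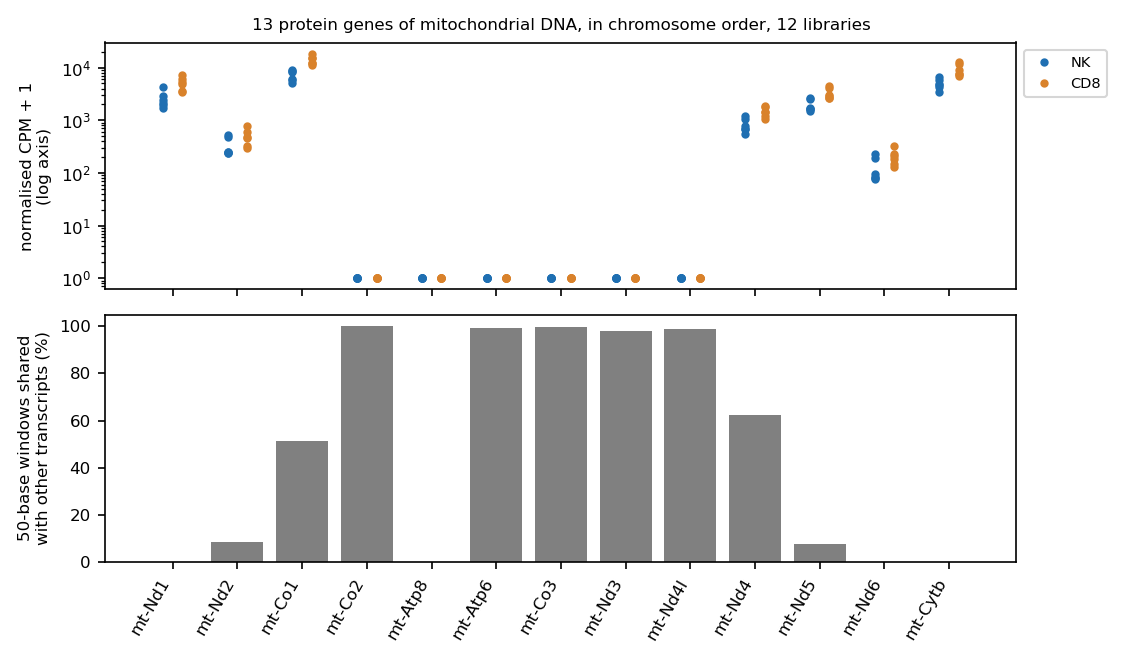
The 13 protein genes of mitochondrial DNA in chromosome order. Upper panel: normalised CPM plus 1 on a log axis in each of the 6 NK and 6 CD8 libraries. Lower panel: percent of 50-base windows of each transcript that also occur in another annotated transcript. The 6 genes from mt-Co2 to mt-Nd4l sit at 0 counts in every library, and 5 of those 6 have at least 98% of their windows shared.

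The mitochondrial members divided into 7 genes with high counts and 6 genes with none. mt-Co2, mt-Atp8, mt-Atp6, mt-Co3, mt-Nd3 and mt-Nd4l had 0 counts in all 12 libraries, although their products are core subunits of complexes IV, V and I, and they are 6 neighbours in the order of the mitochondrial chromosome. On either side of them mt-Co1, the catalytic subunit of complex IV, was at 6877 per kilobase and mt-Nd4, a proton-pumping subunit of complex I, at 825. mt-Cytb, the cytochrome b of complex III, was at 6232, mt-Nd1 at 3967, mt-Nd5 at 1433, mt-Nd2 at 393 and mt-Nd6, encoded on the opposite strand, at 316. Only reads that aligned to a single place were counted, so the transcript sequences were searched for windows of 50 bases, the read length, that also occur in other annotated transcripts. Such windows made up 100% of mt-Co2 (635 of 635), 99.9% of mt-Co3, 99.5% of mt-Atp6, 98.8% of mt-Nd4l and 98.0% of mt-Nd3. The share was 62.2% for mt-Nd4, 51.1% for mt-Co1, 8.2% for mt-Nd2 and 7.6% for mt-Nd5. It was 0% for mt-Nd1, mt-Nd6, mt-Cytb and mt-Atp8, so the count of 0 for mt-Atp8 was not accompanied by shared windows in the annotated transcripts.

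Among the annotated pseudogenes that share these windows, 7 unprocessed ones lie side by side on the minus strand of chromosome 1 between 24611535 and 24616197 of GRCm38. No annotated copy stands between the end of Gm10925 at 24614651 and the start of Gm28661 at 24614885, which is the place that mt-Atp8 holds in the mitochondrial order. Of the 7 copies, Gm28438 had 1362 counts over the 12 libraries and the other 6 had between 2 and 36 each. A window from the middle of mt-Co2 and one from mt-Cytb are shown because they differ in whether a read from them has a single place among annotated transcripts. The first, at chrM:7330-7379 of GRCm38 on the plus strand, also occurs in Gm13341 and Gm28661, and the second, at chrM:14692-14741 on the plus strand, occurs in no other annotated transcript.
mt-Co2: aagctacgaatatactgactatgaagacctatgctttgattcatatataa
mt-Cytb: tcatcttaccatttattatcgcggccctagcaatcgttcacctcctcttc
No comparison was made for the 6 genes at 0, and the levels of mt-Co1 and mt-Nd4 are uncertain by the share of their windows that has a copy. Among the nuclear members 36 of 89 had no shared window and 8 had over 20%, the highest being the second entry of Atp5o with 89.8% (0 counts in every library), the tested entry of Atp5o with 41.6% and Atp5g2 with 38.3%. These shares are over all annotated transcripts of a gene, not only the exons counted, so they can understate the share of the counted sequence. Atp5l, at 10.0%, had 648 shared windows beside an exon length of 544 bases, and Ndufb4, at 18.3%, had 341 beside 971. Cox5a overlapped Gm26631 over 41.7% of its exon bases when strand was ignored, and the strand setting of the counting was not stated.

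**Figure D2:**
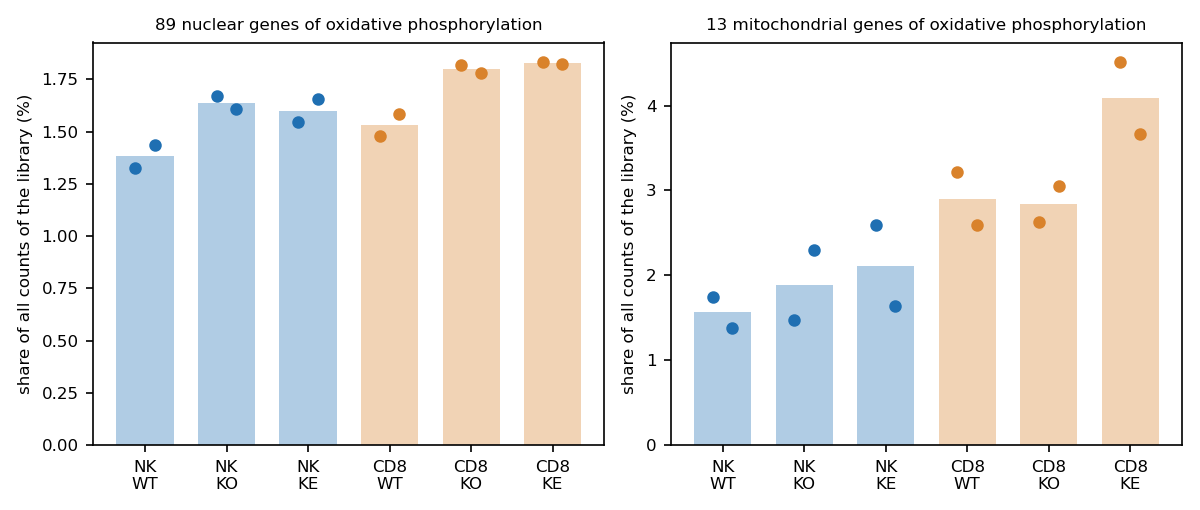
Share of all counts of a library (%) taken by the 89 nuclear (left) and 13 mitochondrial (right) members in the 6 groups. Points are the 2 libraries of a group and bars their mean. The mitochondrial share of every CD8 library lies at or above that of every NK library.

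Summed over all members, the ratio of CD8 to NK shares was 1.77 for the mitochondrial genes and 1.12 for the nuclear genes. The nuclear members took 1.33% and 1.43% of all counts in WT NK libraries, 1.67% and 1.61% in the KO pair and 1.55% and 1.65% in the KE pair. For CD8 T cells the WT libraries gave 1.48% and 1.58%, the KO libraries 1.82% and 1.78% and the KE libraries 1.84% and 1.82%. The mean was 1.54% ± 0.134 (SD, n = 6) in NK cells and 1.72% ± 0.15 (SD, n = 6) in CD8 T cells, a ratio of 1.12 on plain library totals and 1.19 after TMM scaling, and the ranges overlapped. The mitochondrial members took 1.75% and 1.38% in WT NK libraries, 1.47% and 2.30% in the KO pair and 2.59% and 1.64% in the KE pair. For CD8 T cells the WT libraries gave 3.22% and 2.59%, the KO libraries 2.63% and 3.05% and the KE libraries 4.52% and 3.67%. Their mean was 1.85% ± 0.483 (SD, n = 6) in NK cells and 3.28% ± 0.727 (SD, n = 6) in CD8 T cells, a ratio of 1.77 on plain totals and 1.89 after TMM scaling. The first KE library of NK cells and the second WT library of CD8 T cells met at 2.59%, and all other NK libraries lay below all CD8 libraries. The widest Wilson 95% interval of such a share spanned 0.0234 percentage points, which covers counting error only.

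By complex, the nuclear genes of complexes III and IV had the larger ratios of CD8 to NK shares. The ratio was 1.23 for complex III, 1.20 for complex IV, 1.13 for complex I, 1.05 for complex V and 0.95 for complex II on plain totals. After TMM scaling these became 1.31, 1.28, 1.21, 1.12 and 1.01, so complex II changed the side of 1 with the scaling.

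Few nuclear subunit transcripts differed between NK and CD8 T cells by the test, while 5 of the 7 tested mitochondrial ones did. In the comparison of NK with CD8 averaged over the 3 genotypes (edgeR, FDR under 0.05), 2 of 81 nuclear members were called, both lower in NK cells, and 5 of 7 mitochondrial members were called, all lower, where 5.41% of all genes were called (298 higher and 420 lower of 13279). The log2 fold change was negative for 73 of the 81 nuclear members, with a median of -0.32 against 0.02 over all genes tested. At an unadjusted p under 0.05, 23 nuclear members were lower and 1 was higher, beside 1350 lower and 1216 higher among all genes. No member reached an absolute log2 fold change of 1 together with an FDR under 0.05. The 2 nuclear calls are 2.47% of the nuclear members tested, under the 5.41% of all genes. DESeq2 called 7 nuclear and 5 mitochondrial members lower and Uqcc1 higher, where it called 15.1% of all genes.

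**Figure D3:**
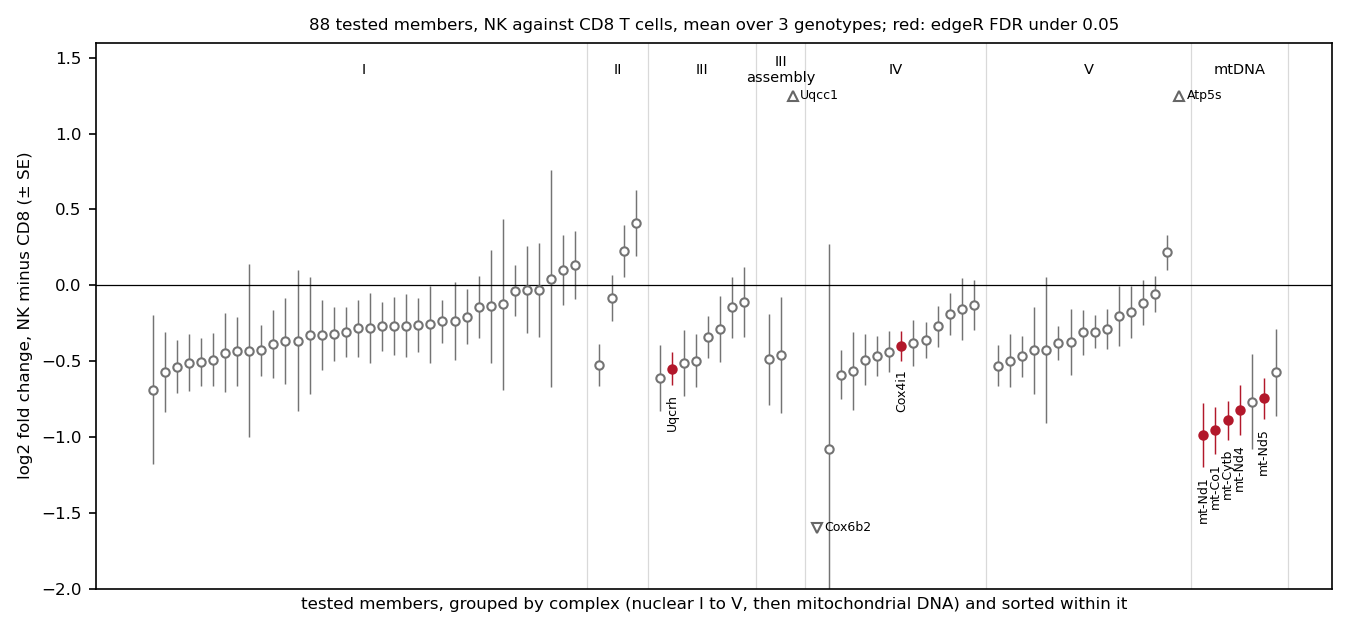
Log2 fold change of NK minus CD8 with its standard error for the 88 tested members, by complex and sorted within it. Filled red points passed an FDR of 0.05, and triangles mark genes beyond the axis limits. The 7 mitochondrial genes lie between -0.99 and -0.57, below most nuclear genes.

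Uqcrh, the small acidic hinge protein that lies beside cytochrome c1 in complex III, had the smallest FDR of the nuclear members. The gene spans chr4:116066965-116075071 on the minus strand of GRCm38, and the counts are of its exons. It ranged from 232 through a median of 302 to 370 normalised CPM in the 6 NK libraries and from 389 through 428 to 503 in the 6 CD8 libraries, so the groups did not overlap. The log2 fold change was -0.55 (SE 0.11, edgeR FDR = 0.0162). The call was lost without the first WT NK library (FDR = 0.0533), the first WT CD8 library (FDR = 0.0569) or the first KO CD8 library (FDR = 0.0516). It was also lost with no filter on low counts (FDR = 0.104) and in the KO and KE groups without the 3 NK libraries richest in macrophage markers (FDR = 0.107). Over the settings and left-out libraries tried its log2 fold change stayed between -0.62 and -0.50, and the FDR with DESeq2 was 0.000542. On CPM of plain library totals the groups overlapped. The other 7 nuclear subunits of complex III were also negative, with a median of -0.42 over the 8, and Uqcrq was at -0.50 (SE 0.17, edgeR FDR = 0.142).

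The sequence directly upstream of Uqcrh is shown because the gene carries the call and has a match to the core CCGGAAG of ETS factors, the family of GABPA, a regulator of many respiratory chain genes. It covers chr4:116075072-116075268 of GRCm38, is read on the minus strand towards the gene, and ends 1 base before the start site of RefSeq. Capitals mark the match, which here lies on the opposite strand as CTTCCGG.
Uqcrh upstream: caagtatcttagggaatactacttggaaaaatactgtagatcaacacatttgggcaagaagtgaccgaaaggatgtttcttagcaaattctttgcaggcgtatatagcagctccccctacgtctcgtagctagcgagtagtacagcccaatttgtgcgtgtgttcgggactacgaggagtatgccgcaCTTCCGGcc

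Complex IV gave the other nuclear call, and all 14 of its tested nuclear members were negative, with a median of -0.42. Cox4i1 ranged from 678 through 717 to 844 normalised CPM in NK cells and from 805 through 984 to 1091 in CD8 T cells, with only the first KO NK library above the lowest CD8 library. Its log2 fold change was -0.40 (SE 0.10, edgeR FDR = 0.0409). The call was kept in 1 of the 12 fits without 1 library, the fit without the first KO NK library, and its FDR in the 12 fits ran from 0.0374 to 0.126. The call was also lost with DESeq2 size factors in edgeR (FDR = 0.0553) and with no filter on low counts (FDR = 0.158). It was lost too with a block for replicate number (FDR = 0.061) and with only the KO and KE groups compared (FDR = 0.0693). DESeq2 kept it (FDR = 0.00863). Cox5a, a structural subunit on the matrix side, ranged from 98.7 through 117 to 142 in NK cells and from 146 through 180 to 200 in CD8 T cells. These groups did not overlap, and the log2 fold change was -0.59 (SE 0.16, edgeR FDR = 0.0628). Cox6c ranged from 166 through 182 to 210 in NK cells and from 215 through 256 to 279 in CD8 T cells, also without overlap (log2 fold change -0.44, SE 0.13, edgeR FDR = 0.0959). Cox6b1 was at -0.47 (FDR = 0.0735) and Cox8a at -0.36 (FDR = 0.112). Ndufa4 overlapped widely, with 105 to 256 in NK cells and 121 to 282 in CD8 T cells.

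Complex I had 33 of 36 negative values, a median of -0.28 and no call. Its members with the smallest FDR were Ndufb7 and Ndufa11, accessory subunits of the membrane arm. Ndufb7 ranged from 134 through 162 to 206 normalised CPM in NK cells and from 184 through 223 to 306 in CD8 T cells (log2 fold change -0.50, SE 0.16, edgeR FDR = 0.108). Ndufa11 ranged from 78.2 through 115 to 146 in NK cells and from 146 through 159 to 186 in CD8 T cells, with the highest NK library next to the lowest CD8 library (log2 fold change -0.54, SE 0.17, edgeR FDR = 0.113). In complex V 14 of 16 members were negative, with a median of -0.31 and no call. Atp5j, coupling factor 6 of the peripheral stalk, came nearest to a call, with 210 through 227 to 328 in NK cells and 314 through 355 to 386 in CD8 T cells (log2 fold change -0.53, SE 0.14, edgeR FDR = 0.0502). Only the first KO NK library of Atp5j lay above the lowest CD8 library. Atp5j was called by edgeR when mitochondrial genes were left out, and by DESeq2. Atp5f1, another peripheral stalk subunit, was at -0.47 (SE 0.14, edgeR FDR = 0.0815).

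Complex II, the only complex without a mitochondrially encoded subunit, did not lean to one side. Its 4 members split into 2 negative and 2 positive values with a median of 0.07. Sdhb ranged from 225 through 254 to 361 normalised CPM in NK cells and from 301 through 394 to 440 in CD8 T cells (log2 fold change -0.52, SE 0.14, edgeR FDR = 0.0585). Sdha ranged from 209 through 393 to 516 in NK cells and from 181 through 296 to 355 in CD8 T cells, with a value of opposite sign (0.41, SE 0.22, edgeR FDR = 0.356). The difference between complexes was not tested.

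Of all 81 tested nuclear members, 4 had all 6 NK libraries below all 6 CD8 libraries on normalised CPM, namely Cox5a, Cox6c, Ndufa11 and Uqcrh, which is 4.94%, beside 2.94% of all genes. Among the 7 tested mitochondrial members these were mt-Co1 and mt-Cytb. On CPM of plain library totals 0 nuclear members and mt-Co1 alone kept this separation, beside 2.50% of all genes.

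Of the 7 tested transcripts of mitochondrial DNA, 5 were called lower in NK cells. The median of the 7 log2 fold changes was -0.82, and the mitochondrial and nuclear differences were not tested against each other. mt-Co1 ranged from 5133 through 7221 to 9147 normalised CPM in NK cells and from 11282 through 13730 to 18300 in CD8 T cells, and mt-Cytb from 3492 through 4706 to 6739 and from 7007 through 8398 to 12828. For both genes the groups did not overlap, and the log2 fold changes were -0.96 (SE 0.15, edgeR FDR = 0.00502) for mt-Co1 and -0.89 (SE 0.13, edgeR FDR = 0.00243) for mt-Cytb. mt-Nd5, a proton-pumping subunit of complex I, ranged from 1509 through 1678 to 2670 in NK cells and from 2584 through 2949 to 4527 in CD8 T cells, where only the first KE NK library passed the lowest CD8 library (-0.74, SE 0.14, edgeR FDR = 0.00941). These 3 calls held in all 12 fits without 1 library, and were lost in the KO and KE groups without the 3 NK libraries richest in macrophage markers (FDR of 0.0645 for mt-Co1, 0.0577 for mt-Cytb and 0.158 for mt-Nd5).

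mt-Nd4 ranged from 546 through 731 to 1219 in NK cells and from 1042 through 1436 to 1821 in CD8 T cells (log2 fold change -0.82, SE 0.16, edgeR FDR = 0.0153). The call of mt-Nd4 was lost without the second WT NK library (FDR = 0.0551), the first WT CD8 library (FDR = 0.0521) or the second KO CD8 library (FDR = 0.0525). mt-Nd1 ranged from 1723 through 2267 to 4230 in NK cells and from 3417 through 5084 to 7146 in CD8 T cells (log2 fold change -0.99, SE 0.21, edgeR FDR = 0.0215). Its call was kept in 6 of 12 such fits and was lost without the second WT, first KO or second KE library of NK cells and the first WT, second KO or first KE library of CD8 T cells, with FDR up to 0.0754. mt-Nd6 (-0.77, FDR = 0.205) and mt-Nd2 (-0.57, FDR = 0.321) were not called. Within NK cells the second KO library and the first KE library held the highest values of all 7 genes, and the spread between replicates was wider for these genes than for the nuclear ones. The median absolute difference between the 2 libraries of a group was 0.438 on the log2 scale for the mitochondrial members, 0.257 for the nuclear members and 0.758 for all genes tested.

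**Figure D4:**
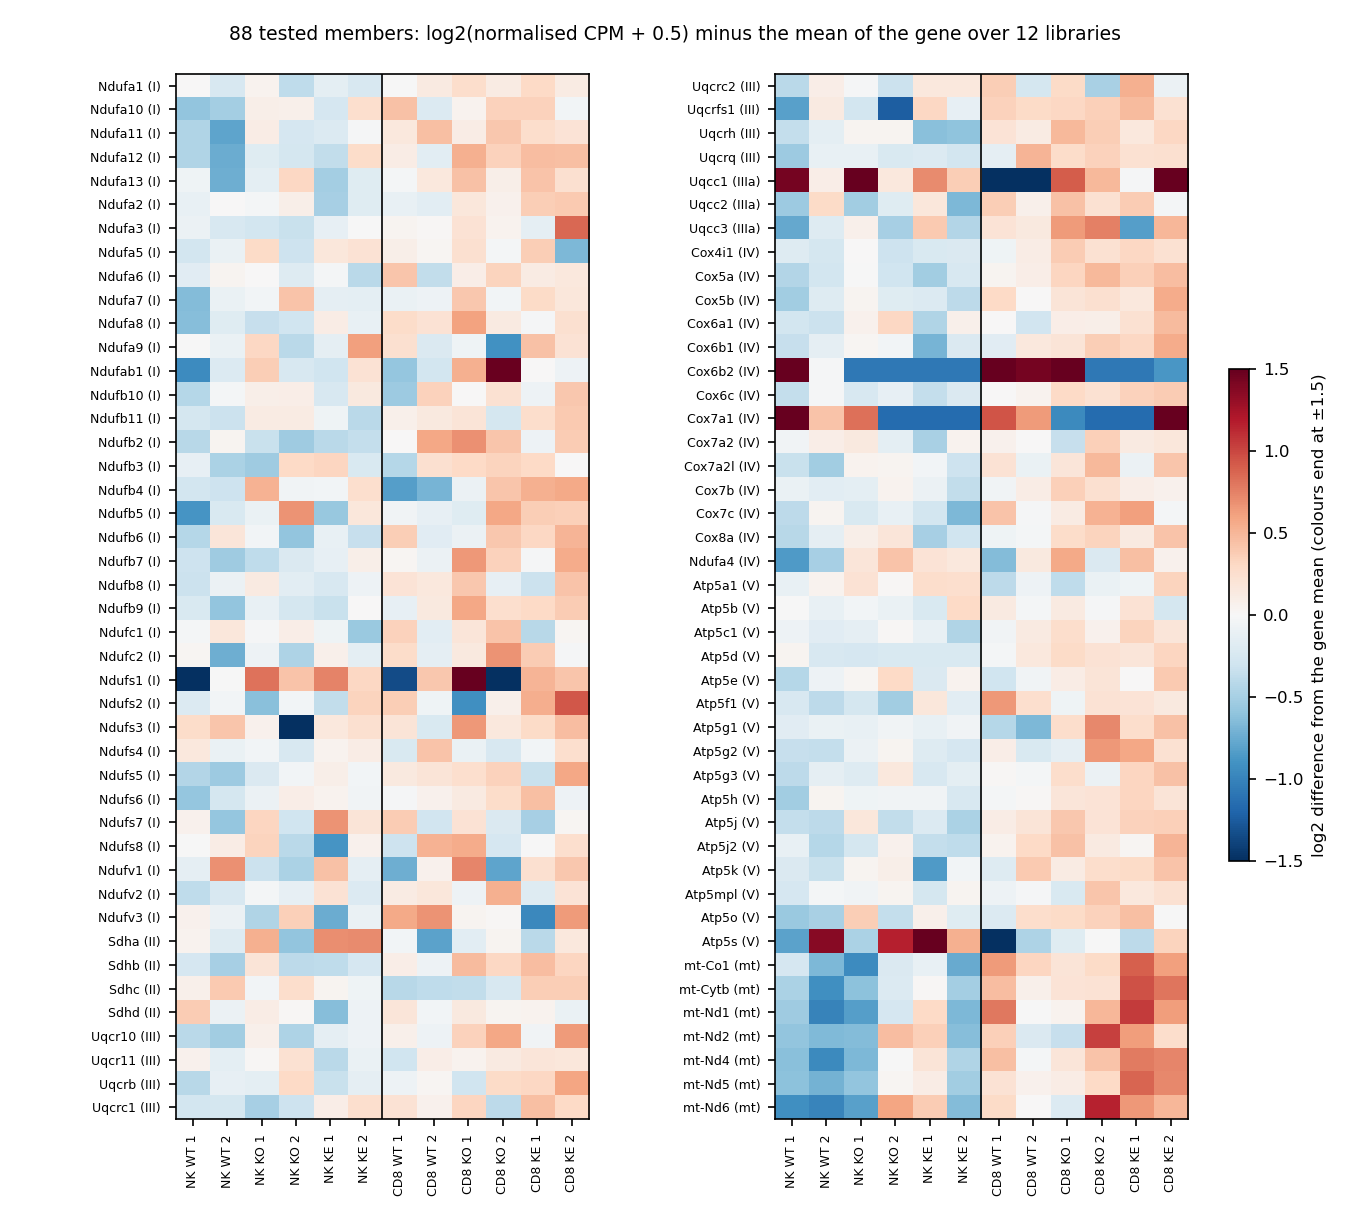
Log2 of normalised CPM plus 0.5, minus the mean of the gene over 12 libraries, for the 88 tested members in each library, with the complex in brackets (IIIa, assembly of complex III; mt, mitochondrial DNA). The vertical line separates NK from CD8 libraries, and colours end at ±1.5. The 7 mitochondrial genes at the foot of the right panel are blue in most NK libraries and red in most CD8 libraries, and Uqcc1 is dark blue in the 2 WT CD8 libraries only.

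Within single genotypes, with 2 libraries on each side, the same contrast called no member by edgeR. DESeq2 called 1 nuclear member (Uqcc1) and 5 mitochondrial members in WT, none in KO, and 2 nuclear (Uqcrh and Cox6b1) and 3 mitochondrial members in KE, where it called 7.58%, 7.55% and 7.56% of all genes in WT, KO and KE. In WT 0 of 88 members were called where 0.798% of all genes were, in KO 0 where 0.904% were, and in KE 0 where 0.783% were (edgeR). At an unadjusted p under 0.05, 4 nuclear and 5 mitochondrial members were lower in WT, with 5 and 2 for KO and 14 and 5 for KE, and 1 nuclear member was higher in WT. Of all 13279 genes 650, 734 and 684 were lower at this level in WT, KO and KE, so that the nuclear counts in WT and KO were near the share over all genes. All 7 mitochondrial members were negative in each genotype, with medians of -0.96, -0.61 and -0.96 in WT, KO and KE. The nuclear medians were -0.25, -0.27 and -0.39.

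The NK libraries that differed in macrophage and monocyte markers were set apart in a further fit. In this list of 8 genes all values were higher in NK cells and 2, Fcgr3 (which NK cells also express) and Itgam, were called. With only the KO and KE groups compared, 1 nuclear member (Uqcrh) and 3 mitochondrial members (mt-Co1, mt-Cytb and mt-Nd5) were called, with medians of -0.33 and -0.73. When the 3 NK libraries with the most of these markers were left out of that fit as well, 1 nuclear member (Ndufs3) and 0 mitochondrial members were called, while the medians were -0.37 and -0.58 and all 7 mitochondrial members stayed negative. The number of all genes called fell from 415 to 298 with the fewer libraries. Ndufs3, a core subunit of complex I, was at 13.5 normalised CPM in the second KO NK library, which then stood alone for its group, and between 92.2 and 118 in the other 5 NK libraries. The part of these cells in the difference between NK and CD8 was not tested beyond these fits.

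In the mutant mice no member was called against WT in either cell type. In NK cells 0 of 88 members were called in KO and 0 in KE, where 0% of all genes were called in both, and 0 for the mean of both mutants, where 0.0301% were. In CD8 T cells 0 members were called in KO, where 0.0527% of all genes were, 0 in KE, where 0.0828% were, and 0 for the mean of both, where 0.218% were. At an unadjusted p under 0.05 between 1 and 5 members were higher in each mutant, and 0 were lower, beside 636 to 837 of all genes in either direction. DESeq2 called 0 members in the NK comparisons, where it called 3.33% of all genes in KO, 3.31% in KE and 4.21% for the mean of both, and Uqcc1 alone in each CD8 comparison, where it called 2.02%, 2.98% and 3% in the same order. The 2 mutants share their WT libraries, so their values are not independent of each other.

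Positive differences outnumbered negative ones, with none past the test. The median log2 fold change of the 81 nuclear members was 0.15 for KO NK cells, 0.07 for KE NK cells, 0.18 for KO CD8 T cells and 0.23 for KE CD8 T cells. Positive values numbered 55, 51, 67 and 64 in the same order. The 7 mitochondrial members had medians of 0.41, 0.58, 0.06 and 0.43, again in that order. Single libraries moved these medians widely, to 0.068 without the second KO NK library, to 0.14 without the first KE NK library, and to -0.31 without the second KO or -0.13 without the second WT CD8 library in KO CD8 T cells, with upper ends of 0.69, 0.98 and 0.29, while KE CD8 T cells ran from 0.31 without the second WT library to 0.73 without the first. On normalised CPM, 12 of 81 nuclear members had all 4 mutant NK libraries above both WT libraries, 14.8% beside 7.06% of all genes, and 2 (Cox6b2 and Ndufs3) had all 4 below, beside 10.8%. Macrophage and monocyte markers moved with this split, at 7003 and 7805 normalised CPM in the WT NK libraries and 218 to 425 in 3 of the 4 mutant NK libraries (5052 in the other), and their part in it was not tested. In CD8 T cells 21 had all 4 mutant libraries above both WT libraries, 25.9% beside 6.8% of all genes, and 1 (Atp5f1) had all 4 below, beside 7.52%. The 21 comprised 6 members each of complexes I, IV (Cox4i1, Cox5a, Cox6a1, Cox6b1, Cox6c and Cox8a) and V, 2 of complex II (Sdhb and Sdhc) and the assembly factor Uqcc1. The mitochondrial members separated in this way were mt-Nd5 and mt-Nd6 in NK cells and none in CD8 T cells.

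**Figure D5:**
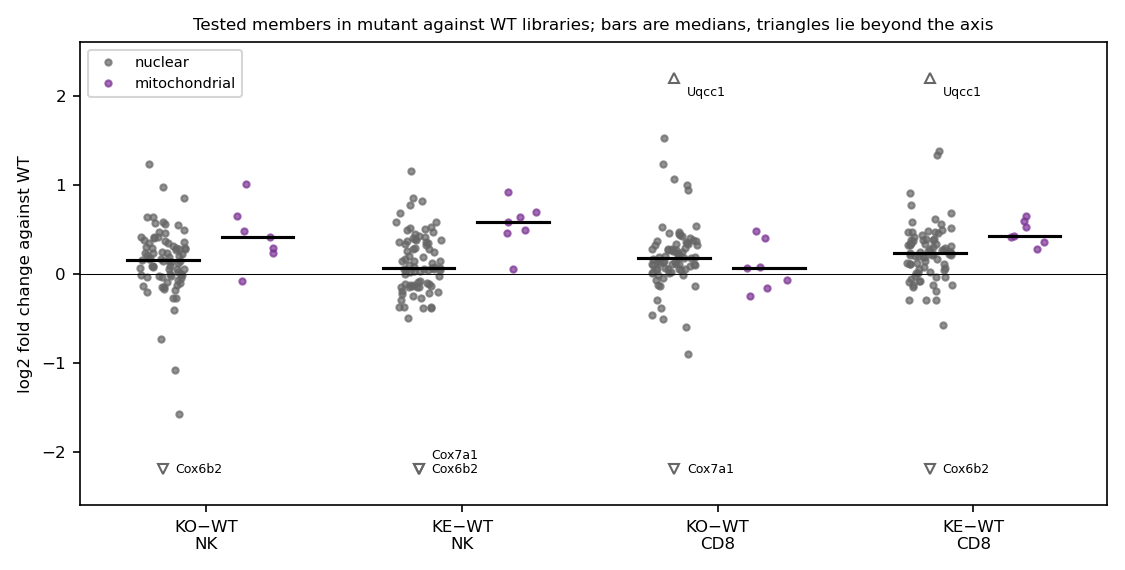
Log2 fold change against WT of the 81 nuclear (grey) and 7 mitochondrial (purple) tested members in KO and KE NK cells and CD8 T cells. Black bars are medians, and named triangles lie beyond the axis. The nuclear medians run from 0.07 to 0.23 and the mitochondrial medians from 0.06 to 0.58, and no member passed the test.

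The member with the smallest FDR in mutant CD8 T cells was Uqcc1, an assembly factor needed for the translation and stability of cytochrome b. The WT CD8 libraries gave 1.87 and 0.584 normalised CPM, the KO libraries 42.2 and 31.3 and the KE libraries 21.9 and 80.9. For NK cells the WT libraries gave 61.2 and 23.9, the KO libraries 71.1 and 24.8 and the KE libraries 36.7 and 28.9. The 2 WT CD8 libraries were thus far below the other 10 libraries. The log2 fold change was 4.90 (SE 1.10, edgeR FDR = 0.41) in KO and 5.38 (SE 1.13, edgeR FDR = 0.196) in KE, and NK minus CD8 in WT was 5.11 (edgeR FDR = 0.0786). It was called in these 3 comparisons by DESeq2 (FDR of 0.000112, 7.38e-06 and 8.51e-06) and by edgeR without the filter on low counts (FDR of 0.0327, 0.00942 and 0.00601). With edgeR on CD8 libraries alone the FDR was 0.877 in KO and 0.637 in KE. Only 0.3% of its 50-base windows were shared with other transcripts.

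The upstream sequence of Uqcc1 is shown for comparison with that of Uqcrh. It covers chr2:155930311-155930560 of GRCm38, is read on the minus strand towards the gene, and holds no match to the NRF1, ETS or YY1 cores, so that no base is in capitals.
Uqcc1 upstream: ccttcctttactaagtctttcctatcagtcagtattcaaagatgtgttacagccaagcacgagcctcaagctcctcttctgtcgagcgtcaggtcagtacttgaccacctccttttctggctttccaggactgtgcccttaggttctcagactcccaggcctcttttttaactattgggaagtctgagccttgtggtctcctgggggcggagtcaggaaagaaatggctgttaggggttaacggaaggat

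Atp5g1, a gene for the c subunit of the ATP synthase ring, followed Uqcc1 in mutant CD8 T cells. The WT CD8 libraries gave 66.8 and 56.2 normalised CPM, the KO libraries 108 and 149 and the KE libraries 109 and 122, with both WT libraries below all mutants (log2 fold change 0.98 for the mean of both mutants, SE 0.31, edgeR FDR = 0.595). In NK cells all 6 libraries lay between 80.0 and 87.2. Cox8a was at 400 and 408 in WT CD8 T cells and at 459 to 562 in the mutants (0.35, SE 0.18, edgeR FDR = 0.75).

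In NK cells Ndufa4 had the smallest FDR for the mean of both mutants. The WT NK libraries gave 105 and 134 normalised CPM, the KO libraries 216 and 256 and the KE libraries 219 and 212, with all 4 mutant libraries above both WT libraries (0.91, SE 0.32, edgeR FDR = 0.439). In CD8 T cells it was at 121 and 209 in WT and between 163 and 282 in the mutants. Ndufb5 was at 88.2 and 139 in WT and 152 and 260 in KO NK cells (0.86, SE 0.40, edgeR FDR = 0.765), and Ndufa10 at 125 and 133 in WT and 201 and 200 in KO (0.64, SE 0.31, edgeR FDR = 0.765). mt-Nd4 was at 687 and 546 in WT and 1219 and 775 in KE NK cells (0.69, SE 0.28, edgeR FDR = 0.787). Cox6b2 had 66 and 7 counts in the WT NK libraries and 0 in all 4 mutant NK libraries, at least 13.3-fold lower in KO and 12.1-fold lower in KE against a floor of 3 counts per library. The bound rests on the first WT library, since the second WT library alone gives 2.37-fold and 2.15-fold. The WT NK libraries are also those with the highest macrophage and monocyte markers, and the part of those cells in these NK differences was not tested.

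No member was called between KO and KE. In NK cells 0 members were called where 0% of all genes were, and in CD8 T cells 0 where 0% were, while 3 members of the NK comparison and 4 of the CD8 comparison had an unadjusted p under 0.05, beside 506 and 482 of all genes, and DESeq2 called 0 members in both, where it called 1.66% and 1.29% of all genes. Uqcrh was at 368 and 370 normalised CPM in KO and 232 and 235 in KE NK cells, apart by 0.66 on the log2 scale (SE 0.19, edgeR FDR = 1). mt-Cytb was at 7666 and 7691 in KO and 12828 and 11532 in KE CD8 T cells (-0.67, SE 0.22, edgeR FDR = 1). For the difference of the mutant effect between NK and CD8 T cells, 0 members were called for KO where 0.00753% of all genes were, and 0 for KE where 0% were. Below an unadjusted p of 0.05 stood 1 and 3 members, beside 703 and 824 of all genes. Uqcc1 had the smallest p, with a difference of -4.72 for KO (edgeR FDR = 0.895) and -5.75 for KE (edgeR FDR = 0.481), and was the only member that DESeq2 called in either, where it called 1.7% and 2.45% of all genes.

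Other genes of mitochondrial and energy metabolism were read in the same fit for NK minus CD8, where 5.41% of all genes were called. Of 41 tested assembly factors of the complexes 0 were called (median -0.30), of 14 electron carriers and feeders such as Cycs 0 (median -0.12), and of 20 regulators of mitochondrial DNA expression and biogenesis 0 (median -0.07). Of 16 genes of the tricarboxylic acid cycle, Dlst was higher in NK cells (1.38, SE 0.22, edgeR FDR = 0.00535) and Mdh2 lower (-0.60, SE 0.15, edgeR FDR = 0.039). Of 14 glycolytic genes 5 were lower in NK cells (Gapdh, Pgk1, Tpi1, Ldha and Gpi1). Their values ran from -1.29 for Pgk1 to -0.66 for Gpi1, and the median of the 14 was -0.62. Of 77 mitochondrial ribosomal proteins Mrps6 alone was called (lower, -1.83, SE 0.40, edgeR FDR = 0.0241), and of 76 cytosolic ribosomal proteins 1 was higher (Rpl10) and 3 were lower (Rps15a, Rps26 and Rplp0). None of these 7 lists had a call in a mutant against WT, where few genes of any kind were called. The share of all genes called was 0% in KO and KE NK cells, 0.0527% in KO and 0.0828% in KE CD8 T cells. Cytosolic ribosomal proteins were positive for 76 of 76 genes in KO NK cells (median 0.41), 71 in KE NK cells (median 0.23), and 76 in both KO and KE CD8 T cells (medians 0.42 and 0.33), whereas the glycolytic medians were -1.09, -1.26, -0.46 and -0.88 in the same order. The ribosomal median was above that of the nuclear members in each of the 4 comparisons.

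The promoters of the nuclear members were searched for short motifs known from respiratory genes, and the shares were not tested against those of all promoters. RefSeq windows of 300 bases (250 before and 50 after the start, GRCm38.p6) were matched for 72 of the 89 nuclear members and searched on both strands. The core of NRF1, a regulator of respiratory genes (GCGCANGC), stood in the windows of 34.7% of the members and 14.8% of 17492 genes. The ETS core CCGGAAG stood in 22.2% and 12.9%, and the core of YY1 (AAGATGGC) in 15.3% and 3.6%. The SP and KLF core GGGCGG was found for 44.4% of members and 49.2% of genes, the CCAAT box for 44.4% and 42.3%, and the TATA box (TATAAA) for 9.7% and 14.8%. No motif in this set contains another, and a match describes letters of the window, not a bound site.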

How the data were processed

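RNA was measured in 12 libraries of 300 sorted cells each. The authors made cDNA with Smart-seq2 and sequenced single-end reads of 50 bases. The submitters' processing notes name Trimmomatic, STAR and the builds GRCm38 and mm10, and the authors then counted uniquely aligned reads in exons of the GENCODE Basic set with summarizeOverlaps. The deposited values are raw read counts per gene, not normalised and not pooled. Reads are not independent molecules, since no molecular identifiers were stated. Of 54232 rows, 54079 had an entry in the GENCODE annotation used for names, biotypes and exon lengths, and 153 had none.

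Groups and replicate numbers were taken from the sample titles. The members and gene lists were chosen with earlier results of these data known. A single edgeR model (version 4.0.16, R 4.3.3) with TMM normalisation and a mean for each group was fitted to all 12 libraries, with two-sided robust quasi-likelihood tests. Genes with a mean normalised count of at least 10 (13279) were tested, Benjamini-Hochberg adjustment ran over all of them, and an FDR under 0.05 was called. The study's fold rule, a log2 fold change of 1 or more in size, was counted beside it. Standard errors are the size of the log2 fold change over the root of its F statistic. The common biological coefficient of variation was 109%. Alternatives were DESeq2 1.42.0, DESeq2 size factors in edgeR, no filter on low counts, leaving out mitochondrial genes, a replicate block, fits within 1 cell type and leaving out each library. A fit without the NK libraries richest in macrophage markers, and the alternatives for NK against CD8 within KO and within KE, were added after seeing the data.

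The genes named were the mitochondrial protein genes, the called nuclear members of each complex in NK against CD8 (or else the 2 with the smallest p), the alternative subunit forms, the 3 members with the smallest p in each mutant comparison and the first in each of the others, the 3 highest and lowest per length in each complex, and the 3 members on each side of the filter. Members named for libraries that do not overlap, for values near the threshold or for a call under an alternative were chosen after their values were seen. Shared windows of 50 bases were counted over GENCODE transcripts, and promoter windows are from RefSeq (GRCm38.p6). The lists of assembly factors, tricarboxylic acid cycle, electron carriers, regulators, glycolysis, ribosomal proteins and cell markers came from general knowledge.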

Additional observations from a re-analysis of the deposited data

Results flagged for a closer look

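For 4 of 81 tested nuclear members (4.94%, beside 4.82% of all genes) the KE libraries lay on opposite sides of WT in the 2 cell types, and for 1 (1.23%, beside 4.6%) the KO libraries did. Atp5f1 was at 266 and 240 normalised CPM in WT and 354 and 281 in KE NK cells, and at 495 and 374 in WT and 362 and 348 in KE CD8 T cells, a difference of the log2 fold changes (NK minus CD8) of 0.62 (edgeR FDR = 0.82). Ndufa2 was at 166 and 181 in WT and 127 and 159 in KE NK cells, and at 166 and 161 in WT and 232 and 236 in KE CD8 T cells, a difference of -0.80 (edgeR FDR = 0.784). Sdhc was at 124 and 154 in WT and 121 and 112 in KE NK cells, and at 87.4 and 90.0 in WT and 152 and 152 in KE CD8 T cells, a difference of -1.03 (edgeR FDR = 0.784). Ndufs3 was at 107 and 118 in WT and 98.3 and 104 in KE NK cells, and at 101 and 74.8 in WT and 107 and 122 in KE CD8 T cells, a difference of -0.53 (edgeR FDR = 1). Ndufa3 was at 86.9 and 77.6 in WT and 75.8 and 73.1 in KO NK cells, and at 94.7 and 93.6 in WT and 107 and 95.5 in KO CD8 T cells, a difference of -0.25 (edgeR FDR = 1). None of the 5 differences passed the test. Gm28438, a chromosome 1 copy of mt-Nd3 that belongs to no comparison of the report, had a total of 1362 counts over the 12 libraries, where the limit that a count of 0 allows is 3 counts per library.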

How the results depend on the processing

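For NK against CD8 averaged over genotypes, the number of nuclear members called was 2, and it was 1 with DESeq2 size factors in edgeR, 0 with no filter on low counts, 1 with a replicate block and 8 with DESeq2 (Atp5f1, Atp5j, Cox4i1, Cox5a, Cox6b1, Sdhb, Uqcc1 and Uqcrh), which called 15.1% of all genes. With mitochondrial genes left out, the nuclear members called were Atp5j, Cox4i1 and Uqcrh. Leaving out 1 library at a time gave 0 to 5 nuclear calls and 3 to 5 mitochondrial calls, with medians from -0.35 to -0.26 and from -0.97 to -0.72. The 0 calls came without the first WT NK, first WT CD8 or first KO CD8 library, the 5 without the first KO NK library, and the 3 mitochondrial calls without the second WT NK, first WT CD8 or second KO CD8 library. In the fits of KO and KE groups added after seeing the data, the nuclear calls were 1 with all libraries and 1 without the 3 NK libraries richest in macrophage markers, and the mitochondrial calls 3 and 0. The last fit has fewer samples. Replicate numbers did not pair the samples: the correlation of deviations between groups ran from -0.025 to 0.038, over 0.1 in 0 of 15 pairs of groups. The block lost the call of Cox4i1 and changed no other call among the genes named.

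Without the filter on low counts, or with DESeq2, NK against CD8 in WT gave 1 nuclear and 5 mitochondrial calls, and KO against WT, KE against WT and both mutants against WT in CD8 T cells 1 nuclear call each (Uqcc1). NK against CD8 in KO gave 3 mitochondrial calls with no filter, and NK against CD8 in KE 5 with no filter and, with DESeq2, 3 mitochondrial and 2 nuclear calls. The alternatives for these 2 comparisons were added after seeing the data. No filter also gave 1 mitochondrial call in KE against WT in NK cells, 1 in KE against WT in CD8 T cells and 2 in KO against KE in CD8 T cells. The shares of all genes called without the filter are not given here, so these counts cannot be set against them. DESeq2 gave 1 nuclear call for each difference of mutant effects between cell types. Why the filter and the tool change these calls was not tested.

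Without 1 library, NK against CD8 in KO gave 0 to 1 nuclear calls (Ndufs3, without the first KO NK library) and the other comparisons outside the mean over genotypes 0 to 0, and the medians moved as follows. NK against CD8 in WT ran from -0.34 to -0.21 for nuclear and -1.17 to -0.75 for mitochondrial members, with -0.32 to -0.22 and -1.12 to -0.32 for KO and -0.46 to -0.35 and -1.32 to -0.56 for KE. KO against WT in NK cells ran from 0.087 to 0.22 and 0.068 to 0.69, and KE against WT in NK cells from 0.026 to 0.16 and 0.14 to 0.98. KO against WT in CD8 T cells ran from 0.13 to 0.22 and -0.31 to 0.29, and KE against WT in CD8 T cells from 0.21 to 0.29 and 0.31 to 0.73. Both mutants against WT ran from 0.072 to 0.16 and 0.28 to 0.64 in NK cells and from 0.18 to 0.25 and 0.031 to 0.55 in CD8 T cells. KO against KE ran from 0.0011 to 0.10 and -0.58 to 0.23 in NK cells and from -0.065 to -0.030 and -0.71 to -0.36 in CD8 T cells. The difference of effects between cell types ran from -0.064 to 0.069 and 0.011 to 0.65 for KO and from -0.23 to -0.084 and -0.36 to 0.46 for KE. The mitochondrial medians of KO against WT in CD8 T cells, KO against KE in NK cells and the KE difference, and the nuclear median of the KO difference, thus changed sign with 1 library.

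Without 1 library the log2 fold change of NK against CD8 ran from -0.25 to 0.019 for Ndufa4, positive without the second WT CD8 (0.019) or first KO CD8 library (0.0092), from -0.23 to 0.026 for Cox7a2, positive without the second KO CD8 library, and from -3.16 to 1.53 for Cox7a1, positive without the second KE CD8 library. Ndufa4 was also positive (0.056) in the fit without the marker-rich NK libraries. None of these 3 genes was called. Of 456 values of single genes without 1 library, 427 kept their direction and side of the threshold, 23 lost a call, 2 gained one and 4 changed sign. Under other settings these were 289, 14, 16 and 1 of 320. At these totals a count of 0 limits a gene to at most 0.275 normalised CPM of uniquely aligned reads, which sets no limit for genes whose sequence has copies, such as mt-Co2.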
